A study of Mus musculus with 12 samples.

Results

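Cell cycle genes were examined in gonocytes, the male germ cells of the perinatal testis, at postnatal day 0 (P0). The rule was a list of 43 gene symbols looked up in the gene table of the study through GENCODE release M21 (GRCm38), and 42 of them had a row among the 35666 genes listed. Rrm2 was not analysed here. By role, 22 of the 42 act at the G1/S transition or in DNA replication, 13 act in G2 and mitosis (G2/M), and 7 are pocket proteins or inhibitors of cyclin-dependent kinases (CDKs).

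The study asks what loss of Morc1, a germ cell ATPase gene of the MORC family, does to gonocyte chromatin and transcripts. Germ cells were taken from testes of mice that carried the Mvh-Venus transgene, a reporter of the germ cell gene Mvh (Ddx4). This reporter and the P0 stage were common to both groups, which were Morc1 (+/-) mice, called het, and Morc1 (-/-) mice, called KO, with 3 libraries each. Het animals kept 1 Morc1 allele, and no wild-type group was analysed here. The labels do not say whether a library came from 1 animal or from a pool, so p-values measure the spread between these libraries, which may be partly technical.

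A cell passes from G1 into S phase when cyclin D with CDK4 or CDK6, and then cyclin E with CDK2, phosphorylate the retinoblastoma family of pocket proteins and release E2F transcription factors. E2F targets include the helicase subunits and nucleotide-synthesis enzymes of replication. G2/M genes such as Ccnb1 and Plk1 are held down in resting cells by the DREAM complex, which contains the pocket proteins p130 or p107. Male germ cells of the mouse leave the cycle in the fetal testis, rest in G0/G1 and resume division after birth, so P0 falls within or near the end of this arrest.

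The targeted gene was checked first, in normalized counts, which are read counts divided by 1 size factor per library, as deposited by the authors. Values are given throughout in the order of replicates 1, 2 and 3. Tests used limma, a linear model fitted here to log2(normalized count + 1) of 26005 genes. Morc1 (ENSMUSG00000022652, chromosome 16 from 48431237 to 48630900 on GRCm38, as for all genes below) gave 7248, 7485 and 4126 normalized counts across the het libraries and 1360.5, 1343 and 1794 across the KO libraries. The genotypes did not overlap, and the KO mean was 23.8% of the het mean (limma log2 fold change -2.03 with an SE of 0.27, adjusted p 0.0109). The change no longer passed when KO replicate 1, KO replicate 3 or het replicate 1 was dropped or without the mean-variance trend (limma adjusted p 0.101, 0.0663 and 0.0511 for the libraries and 0.089 without the trend). The libraries held 28363683 to 32816861 gene reads, and each member had at least 17 reads in every library.

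No cell cycle gene passed the test for a difference between KO and het. Of the 42 members, all of which passed the filter of a mean of at least 10 normalized counts, 0 were higher in KO and 0 were lower by limma at an adjusted p under 0.05. Over all genes tested, 0.431% were called higher and 0.0423% lower, and at these rates fewer than 1 call would be counted among 42 genes. An unadjusted limma p under 0.05 was reached by 0 members, against 6.86% of genes tested, and neither edgeR nor DESeq2 on recovered reads gave such a p for a member. In bulk samples fewer cycling cells and less RNA per cell cannot be told apart. The smallest limma adjusted p among members was 0.776.

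The median log2 fold change (KO minus het) of the members was 0.00, beside -0.02 over all genes tested, with 21 members above 0 and 21 below. By role the medians were 0.03 for 22 G1/S members, -0.07 for 13 G2/M members and 0.10 for 7 pocket proteins and inhibitors. Leaving out KO replicate 2 turned the G1/S median to -0.24 and the inhibitor median to -0.03. Without het replicate 3 these medians were -0.09 and 0.20, and that of G2/M was -0.25. For 31 of the 42 members the 95% interval of the limma fold change lay within a 2-fold change in either direction. The other 11 had wider or shifted intervals, so a 2-fold difference was not outside what the data allow for them.

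**Figure D1:**
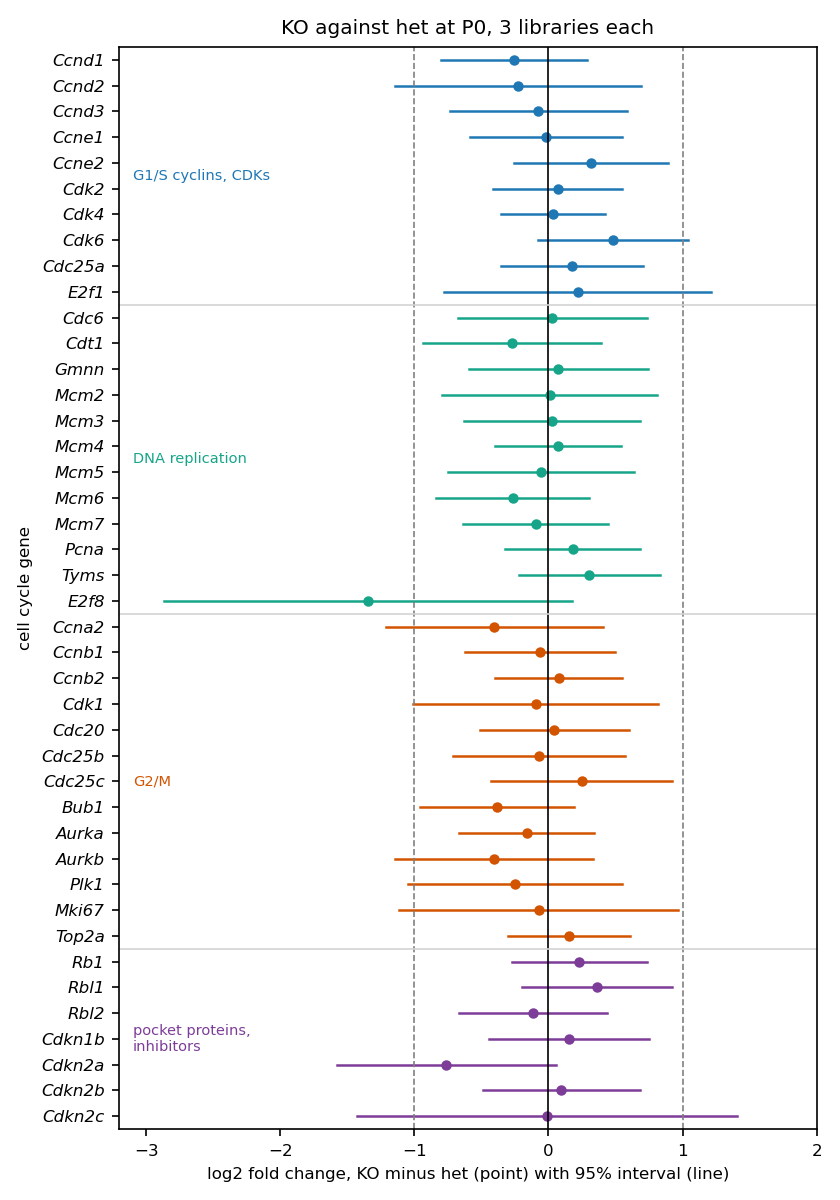
Fold change of each cell cycle gene between Morc1 KO and het gonocytes at P0, by role. Points are limma log2 fold changes (KO minus het, 3 libraries each), lines are 95% intervals, and dashed lines mark 2-fold. Each of the 42 intervals includes 0, and those of E2f8 and Cdkn2a lie furthest to the left.

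The germ cell marker Ddx4 had 28528, 31038 and 17605 normalized counts across the het libraries and 28977, 20304 and 28851 across the KO libraries. Its lowest values were in het replicate 3 and KO replicate 2. All 10 germ cell markers were tested and 0 passed, while of 10 Sertoli cell markers 4 had an unadjusted limma p under 0.05 and 0 passed the adjustment. These were Sox9, Amh, Clu and Dhh, with log2 fold changes of -0.70, -1.27, -0.92 and -0.92. The summed level of the Sertoli cell markers was 26287, 18965 and 39458 in het and 13841, 15853 and 19504 in KO, and that of 5 Leydig cell markers was 776, 1079 and 24921 in het and 509.6, 1075 and 911 in KO. Both sums were highest in het replicate 3. All 5 Leydig cell markers and 9 of the 10 Sertoli cell markers had a log2 fold change below 0, against 13417 of 26005 genes tested. Het replicate 3 was the highest library for all 5 Leydig cell markers. Cyp11a1, for example, had 277, 300 and 10074 in het and 136, 332 and 292 in KO. None of the 15 was at 0 in a library, but some were near it. Insl3 had 1 read in het replicate 1 and in KO replicate 1, and Cyp17a1 had 1 in KO replicate 1. Among 10 markers of myoid, endothelial, blood and macrophage cells, 0 passed the limma test. Sertoli cells divide in the newborn testis, and the part of somatic RNA in the cell cycle values was not tested.

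Promoter sequences were read for what the members share apart from their levels. RefSeq windows on GRCm38.p6, from 250 bases before to 50 bases after a transcript start, matched 33 of the 42 members by symbol. Both strands were searched for an E2F element (TTT, then 2 bases that are each C or G, then CGC), for the cell cycle genes homology region or CHR (TTTGAA), which DREAM binds, and for the CCAAT box, which NF-Y binds. In the windows printed here matches of different elements shared no base, and 1 pair of E2F matches in Mcm6 overlapped. An E2F element was present in 8 of 17 G1/S genes (47.1%), 1 of 10 G2/M genes and 2 of 6 pocket protein and inhibitor genes, against 3.89% of 13688 tested protein-coding genes with a window. A CHR was present in 7 of 10 G2/M genes (70%) and 2 of 17 G1/S genes, against 15.4%. All 10 G2/M genes held a CCAAT box, against 42.1% of the tested protein-coding genes. A match describes letters in a window and is not a measured binding site.

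**Figure D2:**
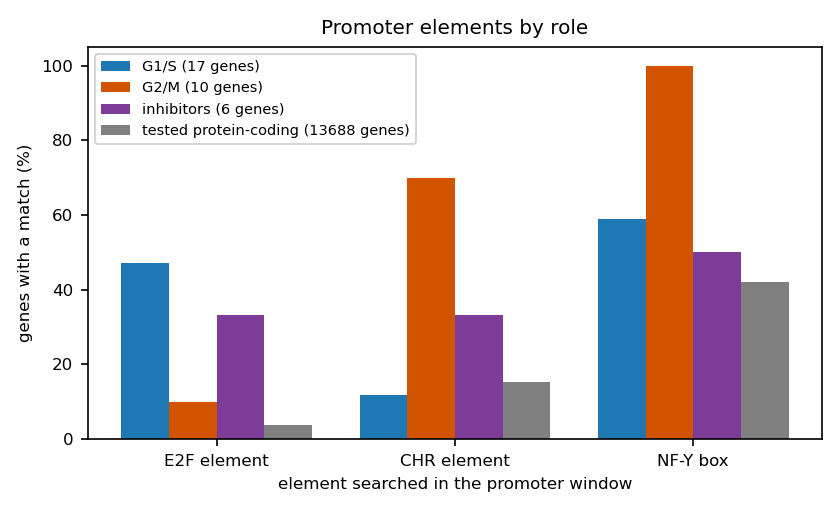
Share of genes with each promoter element, by role. Bars give the percent of genes whose 300-base window holds at least 1 match on either strand, for G1/S, G2/M and inhibitor genes (pocket proteins included) and for 13688 tested protein-coding genes. E2F elements were most frequent in G1/S genes (47.1%), and the CHR in G2/M genes (70%).

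The windows below are printed for genes whose levels are described next, as the 250 bases before the start, 5′ to 3′ on the gene's strand. Capitals mark E2F, CHR and CCAAT matches on either strand. E2f8 and Cdkn2a are the 2 members of 42 whose genotypes did not overlap, as was so for 12.7% of all genes tested. Neither passed the limma test. Cdkn2a has 2 starts, since its alternative first exons encode p19ARF and p16INK4a.
E2f8 (chr7:48881597-48881846, minus strand): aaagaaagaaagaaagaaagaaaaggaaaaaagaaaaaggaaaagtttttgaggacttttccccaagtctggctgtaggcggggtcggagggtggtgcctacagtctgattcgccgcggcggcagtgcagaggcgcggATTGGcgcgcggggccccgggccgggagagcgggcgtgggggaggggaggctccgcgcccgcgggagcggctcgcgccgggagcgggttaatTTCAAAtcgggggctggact
Cdkn2a, first start (chr4:89294620-89294869, minus strand): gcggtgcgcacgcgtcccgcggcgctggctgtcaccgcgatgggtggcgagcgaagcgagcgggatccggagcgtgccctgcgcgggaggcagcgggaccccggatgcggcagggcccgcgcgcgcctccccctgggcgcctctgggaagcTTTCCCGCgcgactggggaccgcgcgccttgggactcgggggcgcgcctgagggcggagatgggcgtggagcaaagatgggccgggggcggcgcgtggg
Cdkn2a, second start (chr4:89282193-89282442, minus strand): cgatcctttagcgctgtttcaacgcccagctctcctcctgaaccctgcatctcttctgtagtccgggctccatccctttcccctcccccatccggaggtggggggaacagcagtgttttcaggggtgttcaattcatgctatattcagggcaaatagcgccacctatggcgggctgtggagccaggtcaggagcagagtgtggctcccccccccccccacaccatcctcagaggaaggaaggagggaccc
Mki67 and Cdk1 are shown because both had their highest levels in het replicate 3 and KO replicate 2.
Mki67 (chr7:135716380-135716629, minus strand): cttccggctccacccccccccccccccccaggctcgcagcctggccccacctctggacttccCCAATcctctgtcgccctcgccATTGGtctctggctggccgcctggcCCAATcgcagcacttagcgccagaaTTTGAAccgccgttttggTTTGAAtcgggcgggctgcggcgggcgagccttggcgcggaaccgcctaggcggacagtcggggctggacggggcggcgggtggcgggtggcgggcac
Cdk1 (chr10:69352913-69353162, minus strand): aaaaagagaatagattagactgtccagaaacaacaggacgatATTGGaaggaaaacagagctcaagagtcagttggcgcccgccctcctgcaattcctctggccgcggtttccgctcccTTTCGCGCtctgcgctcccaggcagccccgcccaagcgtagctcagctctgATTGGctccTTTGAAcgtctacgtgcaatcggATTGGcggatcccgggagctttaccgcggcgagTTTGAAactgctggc
Cdc20 and Bub1 had their lowest levels in the same libraries, and Mcm6 is the MCM gene with the highest level per length.
Cdc20 (chr4:118437344-118437593, minus strand): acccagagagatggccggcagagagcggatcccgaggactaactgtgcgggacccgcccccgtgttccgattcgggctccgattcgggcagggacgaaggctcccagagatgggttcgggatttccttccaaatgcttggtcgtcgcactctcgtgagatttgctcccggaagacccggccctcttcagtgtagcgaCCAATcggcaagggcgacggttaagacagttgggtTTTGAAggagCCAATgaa
Bub1 (chr2:127831860-127832109, minus strand): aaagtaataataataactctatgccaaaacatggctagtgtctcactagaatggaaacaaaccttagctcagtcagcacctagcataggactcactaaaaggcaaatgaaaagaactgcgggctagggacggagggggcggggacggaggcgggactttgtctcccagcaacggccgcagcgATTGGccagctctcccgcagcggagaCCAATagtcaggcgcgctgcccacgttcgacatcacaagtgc
Mcm6 (chr1:128359706-128359955, minus strand): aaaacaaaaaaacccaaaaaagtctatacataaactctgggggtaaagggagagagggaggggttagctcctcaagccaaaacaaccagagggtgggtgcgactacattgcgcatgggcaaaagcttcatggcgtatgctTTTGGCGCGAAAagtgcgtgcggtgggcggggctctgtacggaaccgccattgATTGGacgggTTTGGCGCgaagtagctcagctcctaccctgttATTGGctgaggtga
The E2f8 window holds a CHR match on the minus strand of the gene and a CCAAT match, with no E2F match as searched. The first Cdkn2a start has 1 E2F match, and the second has none of the 3 in the printed bases. Cdk1 carries all 3 kinds, Mki67 and Cdc20 carry CHR and CCAAT matches, Bub1 carries CCAAT matches only, and Mcm6 carries E2F and CCAAT matches.

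Levels were compared between genes as normalized counts per kb of annotated exon. This length joins the exons of all transcripts of a gene and can far exceed that of 1 transcript. For Ccnd3 it was 8775 bases, while the longest protein-coding transcript had 2113, so ranks between genes depend on the length used. In het libraries 37 of the 42 members lay above the median of 17653 tested protein-coding genes on this scale, and 9 lay above the 90th percentile. Cdk4 was the highest at 4584 ± 154 per kb (SD, n = 3; percentile 98.7). Cdc20, the mitotic activator of the anaphase-promoting complex, followed at 2514 ± 550.3 per kb (SD, n = 3), and Mcm6 at 2501 ± 748 per kb (SD, n = 3). Cdc20 and Mcm6 did not differ beyond their spread. Mki67, the proliferation marker, lay lower, at 116 ± 78.4 per kb (SD, n = 3; percentile 48.0). Without het replicate 3 the Mki67 mean was 70.8 per kb (percentile 37.7), so its level turned on that library. The lowest members were Rbl2 at 45.2 ± 4.06 per kb and E2f8 at 31.0 ± 4.76 per kb (SD, n = 3 each). The CDK inhibitor gene Cdkn2c had 28.8, 27.0 and 149 per kb in het. Without het replicate 3 its mean was 27.9 per kb, below Rbl2 and E2f8 (46.5 and 32.1), so which member was lowest also turned on that library. No other member moved by over 1.5 times when 1 het library was left out, a check added after the data were seen. High transcript levels of Cdk4 and the MCM genes thus stood beside lower levels of Mki67 in the same het libraries.

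**Figure D3:**
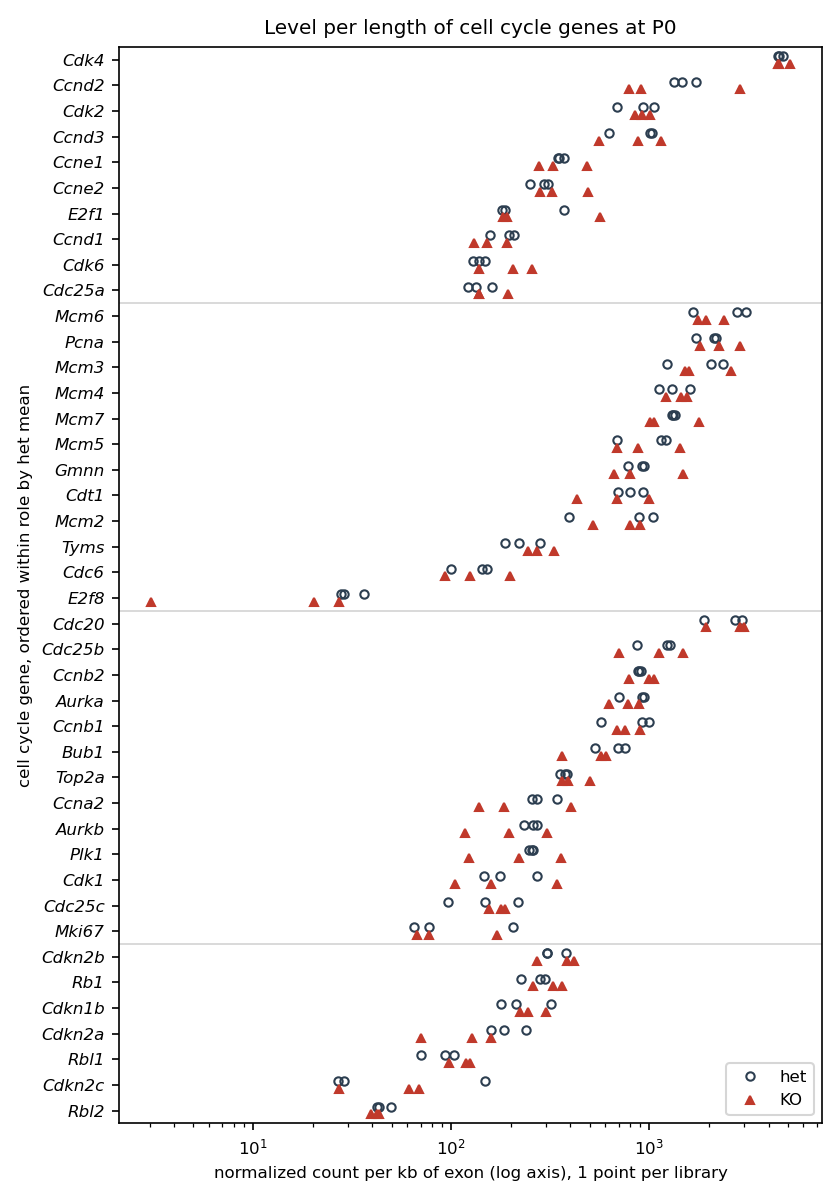
Level of each cell cycle gene per length in the 6 libraries. The log axis gives normalized counts per kb of exon, with circles for the 3 het and triangles for the 3 KO libraries, ordered within each role by the het mean. Cdk4 has the highest level and the tightest points, and 1 KO library of E2f8 lies far below its other 5 libraries.

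Among the G1/S cyclins and kinases, 6 of 10 log2 fold changes were above 0, 4 were below and 0 passed. Per kb of annotated exon Ccnd2 was the highest D-type cyclin (1505 per kb in het), a rank that depends on the length used. Ccnd2 (ENSMUSG00000000184, chromosome 6 from 127125162 to 127152193) had 13688, 12559 and 16223 normalized counts across the het libraries and 7455, 27029 and 8576 across the KO libraries. KO replicates 1 and 3 were below every het library and KO replicate 2 was above every one, so the genotypes overlapped (limma log2 fold change -0.23 with an SE of 0.41, adjusted p 0.954, 95% interval -1.15 to 0.69). Without KO replicate 2 its log2 fold change was -0.82 (limma adjusted p 0.292). Ccnd3 had 8854, 9047 and 5508 in het and 7729.6, 10018 and 4878 in KO, and Ccnd1 had 975, 925 and 742 in het and 713, 898 and 613 in KO. Both ranges overlapped between genotypes, with limma log2 fold changes of -0.07 and -0.26.

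Cdk4 had 15457, 14725 and 14499 normalized counts across the het libraries and 16682, 14679.5 and 14479.8 across the KO libraries. The highest library was 1.15 times the lowest, the narrowest spread of any member, and the 95% interval of its log2 fold change was -0.35 to 0.42. Cdk6, the related kinase partner of cyclin D, had 1927, 2079.6 and 1812 normalized counts across the het libraries and 2858, 1927 and 3589 across the KO libraries. KO replicates 1 and 3 were above every het library while KO replicate 2 lay among them (limma log2 fold change 0.48 with an SE of 0.25, adjusted p 0.806, the highest fold change among members). Cdk2, the partner of cyclin E, had a log2 fold change of 0.07 (95% interval -0.41 to 0.55). For the E-type cyclins Ccne1 and Ccne2 the log2 fold changes were -0.02 and 0.32, and for Cdc25a, the phosphatase that activates CDK2, it was 0.17. E2f1, an activator of replication genes, had 570.2, 592 and 1166 normalized counts across the het libraries and 605, 1783 and 576 across the KO libraries. Its values in het replicate 3 and KO replicate 2 stood above the other 4 libraries, which lay between 570.2 and 605 (limma log2 fold change 0.22 with an SE of 0.45, adjusted p 0.961).

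Of 12 replication members, 7 log2 fold changes were above 0, 5 were below and 0 passed. The MCM2-7 proteins form the replicative helicase, and their 6 genes had log2 fold changes between -0.27 and 0.07, with a 95% interval within 2-fold for all 6. Mcm2 had 6203, 7272 and 2728 normalized counts across the het libraries and 5561, 6222 and 3617 across the KO libraries. Het replicate 3 and KO replicate 3 were the lowest 2 libraries, and the genotypes overlapped (limma log2 fold change 0.01 with an SE of 0.36, adjusted p 0.998). Mcm6 had 12872, 14398 and 7736 normalized counts across the het libraries and 11072, 8261 and 8996 across the KO libraries. Its 2 highest libraries were het replicates 1 and 2, and its lowest was het replicate 3 (limma log2 fold change -0.27 with an SE of 0.26, adjusted p 0.908). Mcm3, Mcm4, Mcm5 and Mcm7 had log2 fold changes of 0.02, 0.07, -0.06 and -0.10. Het replicate 3 was the lowest library for 4 of the 6 MCM genes and KO replicate 3 for the other 2.

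Cdt1, which loads the helicase, had 2511, 2910.2 and 2187 normalized counts across the het libraries and 2151, 3115 and 1351 across the KO libraries, and Gmnn, which encodes its inhibitor geminin, had 1141, 1377 and 1341 in het and 976, 2161 and 1166 in KO. KO replicate 3 was the lowest library for Cdt1 and KO replicate 1 for Gmnn, with KO replicate 2 the highest for both (limma log2 fold changes -0.27 and 0.07). Cdc6, the other loading factor, had 789.6, 749.5 and 523 in het and 486, 1035 and 654 in KO, again with KO replicate 2 highest (limma log2 fold change 0.03). Pcna, the sliding clamp, and Tyms, the thymidylate synthase gene, had log2 fold changes of 0.18 (95% interval -0.32 to 0.68) and 0.31 (95% interval -0.22 to 0.83).

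E2f8 (ENSMUSG00000046179, chromosome 7 from 48866429 to 48881596), an atypical E2F that represses E2F targets in S and G2, had 198, 151 and 157 normalized counts across the het libraries and 109.8, 148 and 16.7 across the KO libraries. All KO values lay below all het values, by little in KO replicate 2 and by most in KO replicate 3, which held 17 reads. The KO mean was 54.2% of the het mean, and the limma fit gave a log2 fold change of -1.35 with an SE of 0.68 (adjusted p 0.799). This was the lowest fold change among members, with a 95% interval of -2.87 to 0.17. The exact two-sided permutation p was 0.1, the smallest that 3 against 3 libraries allow. Without KO replicate 3 the log2 fold change was -0.39 (limma adjusted p 0.98). Over all alternatives its adjusted p ran from 0.456 to 0.9997.

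**Figure D4:**
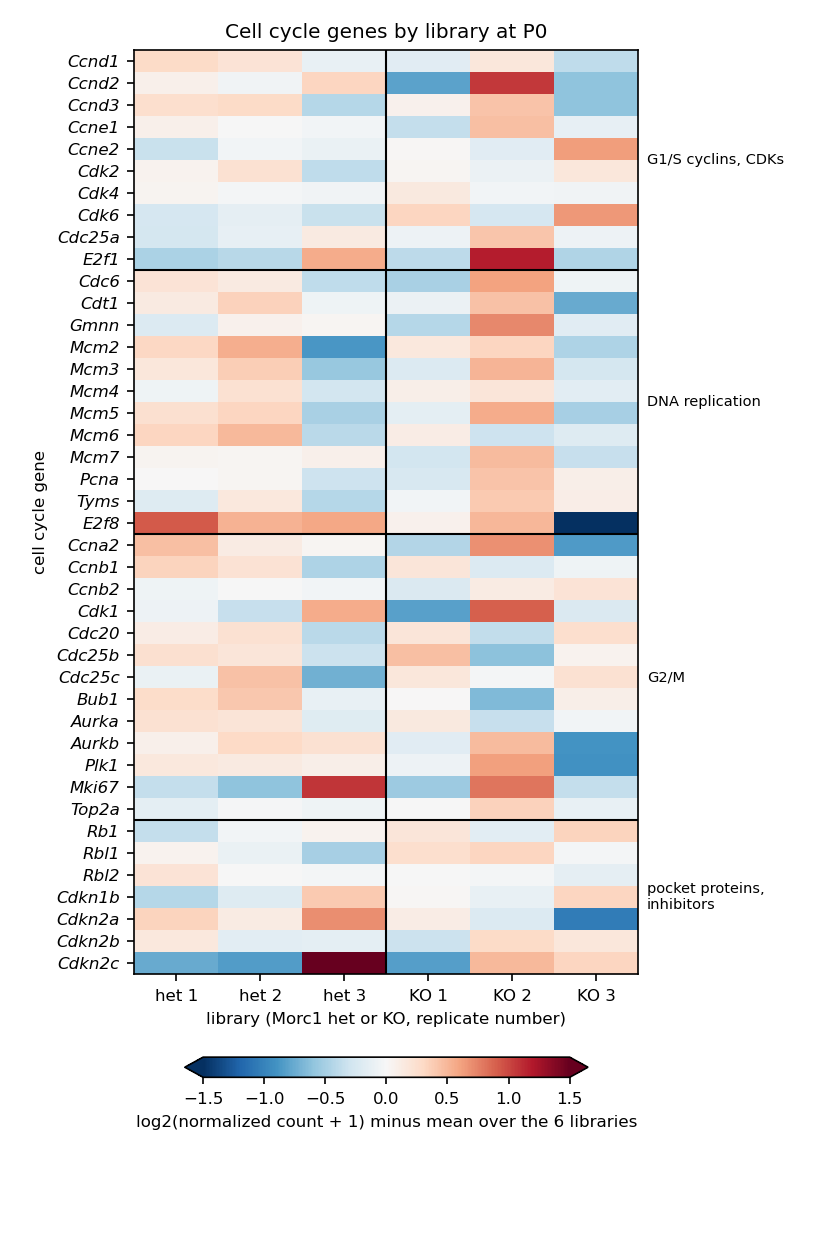
Level of each cell cycle gene by library, relative to its own mean. Colour gives log2(normalized count + 1) minus the mean over the 6 libraries, red above and blue below, with the scale ending at 1.5 in either direction. KO replicate 2 is the highest library for 20 of the 42 genes, and het replicate 3 and KO replicate 3 are each the lowest for 12.

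Of 13 G2/M members, 4 log2 fold changes were above 0, 9 were below and 0 passed. Mki67 (ENSMUSG00000031004, chromosome 7 from 135689784 to 135716361) had 773, 651 and 2073 normalized counts across the het libraries and 676, 1720.4 and 773 across the KO libraries. Het replicate 3 and KO replicate 2 stood above the other 4 libraries, 1 of each genotype (limma log2 fold change -0.07 with an SE of 0.47, adjusted p 0.99, 95% interval -1.11 to 0.97). Cdk1, the mitotic kinase, had 866, 721 and 1345 normalized counts across the het libraries and 518, 1694 and 782 across the KO libraries. The same 2 libraries were the highest, and the genotypes overlapped (limma log2 fold change -0.10 with an SE of 0.41, adjusted p 0.985). Its partner Ccnb1 had 4209, 3874 and 2413 in het and 3777, 2887 and 3175 in KO, with het replicate 3 and KO replicate 2 instead the lowest (limma log2 fold change -0.06). Ccnb2 was steadier, at 1339.8, 1396 and 1359 in het and 1206, 1522 and 1619.6 in KO (limma log2 fold change 0.08).

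Cyclin A, CDK1's partner before mitosis, is encoded in dividing cells by Ccna2, which had 1399, 1109 and 1045 normalized counts across the het libraries and 752, 1645 and 566 across the KO libraries. KO replicates 1 and 3 were below every het library and KO replicate 2 above (limma log2 fold change -0.40 with an SE of 0.36, adjusted p 0.898). The mitotic kinase genes Aurkb and Plk1 had the same order of KO libraries. Aurkb had 686, 799.8 and 761 in het and 575, 899 and 347 in KO, and Plk1 had 570.2, 560.2 and 544 in het and 485, 787 and 271 in KO. Their log2 fold changes were -0.41 and -0.25, with 95% intervals of -1.15 to 0.33 and -1.04 to 0.55. Top2a, the topoisomerase of chromosome condensation, had 3192, 3477 and 3388 in het and 3509.6, 4508 and 3275 in KO, overlapping between genotypes (limma log2 fold change 0.15).

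Bub1, a spindle checkpoint kinase gene, had 3009, 3298 and 2305 normalized counts across the het libraries and 2486, 1574 and 2633 across the KO libraries. KO replicate 2 and het replicate 3 were the lowest, and KO replicates 1 and 3 lay between het replicate 3 and the other het libraries (limma log2 fold change -0.38 with an SE of 0.26, adjusted p 0.863). Cdc20 had 5055, 5496 and 3536 in het and 5331, 3615 and 5584 in KO, and Aurka, the centrosomal Aurora kinase gene, had 2371, 2317 and 1781 in het and 2236, 1592 and 1965 in KO. In both, het replicate 3 and KO replicate 2 were again the lowest 2 libraries. Of the CDK-activating phosphatase genes, Cdc25b had 4762, 4585 and 3235 in het and 5524, 2636 and 4182 in KO, with those 2 libraries lowest. Cdc25c had 729, 1063 and 475 in het and 879.6, 764 and 917 in KO, and only het replicate 3 stood low. The log2 fold changes of Cdc20, Aurka, Cdc25b and Cdc25c were 0.04, -0.16, -0.07 and 0.25.

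The G2/M genes thus did not vary as 1 block over libraries. For 5 of the 13 (Ccnb1, Cdc20, Cdc25b, Bub1 and Aurka) the 2 lowest libraries were het replicate 3 and KO replicate 2, and for Cdk1 and Mki67 these were the 2 highest. Over all 42 members those libraries were the 2 lowest for 8 (19.0%) and the 2 highest for 7 (16.7%). Among 17653 tested protein-coding genes they were the 2 lowest for 2952 and the 2 highest for 2645, so the shares over all members were near the background. Of 65 other cell cycle genes, listed further on, they were the 2 highest for 20 (30.8%) and the 2 lowest for 3 (4.62%). This balance was opposite to that of the G2/M members, but the 65 mix G1/S, G2/M and other regulators. Their G2/M genes with those libraries highest were Cenpe, Cenpf, Birc5, Ube2c, Kif2c, Cks2, Aspm, Foxm1 and Mybl2. Those with them lowest were Nusap1 and Pttg1. The germ cell markers Ddx4, Tdrd1 and Mael, 3 of 10, also had those 2 libraries lowest, and 0 of 10 had them highest. The markers did not agree, since KO replicate 2 alone was the highest library for 3 of the 10. The grouping by these 2 libraries was noticed after the values were seen and was not tested.

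Pocket proteins restrain E2F. Rb1 had 1356, 1686 and 1795 in het and 1965, 1549 and 2181 in KO, Rbl1 (p107) had 621, 559 and 424 in het and 715, 746 and 585 in KO, and Rbl2 (p130) had 377, 326 and 321 in het and 326, 320.3 and 298 in KO. All 3 overlapped between genotypes, with limma log2 fold changes of 0.23, 0.36 and -0.11. Per length, Rb1 was the highest of them (268 ± 37.99 per kb in het) and Rbl2 the lowest (45.2 ± 4.06 per kb, SD, n = 3 each).

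Cdkn1b, whose product p27 inhibits cyclin E with CDK2, had 816, 964 and 1447 normalized counts across the het libraries and 1115, 1018 and 1377 across the KO libraries. Het replicate 3 and KO replicate 3 were the highest, and the genotypes overlapped (limma log2 fold change 0.15 with an SE of 0.27, adjusted p 0.953, 95% interval -0.44 to 0.75). The INK4 genes Cdkn2a, Cdkn2b and Cdkn2c encode inhibitors of CDK4 and CDK6, and Cdkn2a also encodes the p53 regulator ARF. Cdkn2a (ENSMUSG00000044303, chromosome 4 from 89274471 to 89294653) had 216, 186 and 278 normalized counts across the het libraries and 186, 149 and 82.3 across the KO libraries. All KO values lay below all het values, with KO replicate 1 only just below het replicate 2. The KO mean was 61.3% of the het mean (limma log2 fold change -0.76 with an SE of 0.37, adjusted p 0.776, 95% interval -1.58 to 0.05). The exact two-sided permutation p was 0.1, the smallest possible, and without KO replicate 3 the log2 fold change was -0.43. Reads were counted per gene, so the p16INK4a and ARF transcripts were not told apart.

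Cdkn2b, the neighbour of Cdkn2a, had 526, 423 and 424 in het and 377, 577 and 531 in KO, overlapping between genotypes (limma log2 fold change 0.10). Cdkn2c had 77.2, 72.4 and 399 normalized counts across the het libraries and 73.2, 184 and 164 across the KO libraries. Het replicate 3 was 5.51 times the lowest library and set the het spread, so the 95% interval was wide, at -1.42 to 1.41. E2f8 and Cdkn2a were the 2 members of 42 (4.8%) whose genotypes did not overlap, both lower in KO. Over all genes tested 12.7% did not overlap, 7.17% had every KO value above every het value and 5.57% had every KO value below, so the share among members was not above the background.

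Libraries of the same genotype also differed from each other. The highest library was more than 2 times the lowest for 20 of the 42 members. KO replicate 2 was the highest library for 20 members (47.6%) and for 13 of 22 G1/S members (59.1%), against 19.7% of tested protein-coding genes. KO replicate 3 and het replicate 3 were each the lowest for 12 members (28.6%), against 24.1% and 21.5%. The median log2 deviation of the replication members from their own means was 0.15, 0.28 and -0.35 for het and -0.12, 0.46 and -0.23 for KO. For G2/M members it was 0.11, 0.19 and -0.06 for het and -0.01, 0.12 and -0.07 for KO, a narrower range of the median. Single genes were about as variable, with a median SE of the log2 fold change of 0.288 for G2/M and 0.297 for replication members. The median log2 deviation of germ cell markers was 0.08, 0.14 and -0.24 for het and 0.10, -0.02 and -0.10 for KO. That of Sertoli cell markers was 0.35, -0.11 and 0.91 for het and -0.44, -0.24 and -0.16 for KO. KO replicate 2 had the highest replication median, and all KO libraries had a Sertoli marker median below 0. Het replicate 3 had the lowest replication median and the highest Sertoli marker median. The other libraries did not all follow this order. KO replicate 1 had the lowest Sertoli marker median with a replication median below 0, and het replicate 1 was above 0 in both. The part of cell composition in these differences was not tested.

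**Figure D5:**
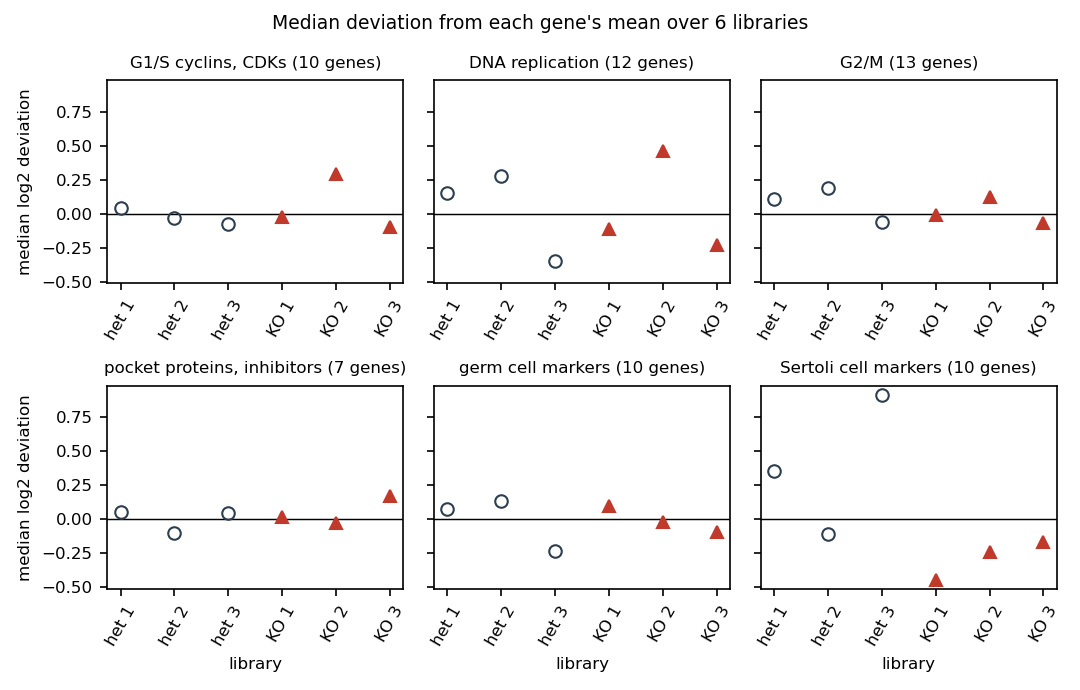
Median deviation of each gene group by library, with germ and Sertoli cell markers for comparison. Points are the median over genes of log2(normalized count + 1) minus the gene's mean over the 6 libraries (circles het, triangles KO). KO replicate 2 is highest for the replication genes at 0.46, and het replicate 3 is highest for the Sertoli cell markers at 0.91.

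With het replicate 3 and KO replicate 2 left out, which had the lowest Ddx4 in their genotypes, 0 members passed the limma test. The G1/S median was then -0.31 and the G2/M median -0.16. The smallest adjusted p was that of Ccnd2, at 0.218 with a log2 fold change of -0.71, and Ccna2 had -0.93 at an adjusted p of 0.288. This choice of libraries was made after the data were seen and left 2 libraries per genotype. It followed Ddx4 alone, and the 10 germ cell markers did not agree on KO replicate 2. That library was the highest for 3 of them and the lowest for 2. Their median log2 deviation was -0.02 in KO replicate 2 and -0.10 in KO replicate 3.

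Other cell cycle genes gave the same counts. Of 21 further G1/S genes, 26 G2/M genes and 18 other regulators (mostly brakes and E2F or DREAM components, with Skp2, which promotes p27 breakdown), 0 passed the limma test and 0 had an unadjusted p under 0.05, against 6.86% of all genes tested. Their median log2 fold changes were -0.15, -0.05 and 0.00. In the G1/S list the ends were Pold3, a polymerase delta subunit gene, at 0.23 and Mcm10, a replisome assembly gene, at -0.39. In the G2/M list they were Bub1b, a spindle checkpoint gene, at 0.25 and Birc5, the survivin gene, at -0.39. Among the other regulators they were Wee1, the kinase gene that restrains CDK1, at 0.36 and Btg2, an antiproliferative gene, at -0.38. KO replicate 2 was the highest library for 30 of these 65 genes (46.2%).

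Transposable element (TE) copies near the members gave a readout apart from the gene counts. The TE table lists 338 copies that overlap a member or lie within 10 kb of it, and 88 of them, beside 29 members, had a mean of at least 10 normalized counts. In the limma fit over 49781 copies, 1 of the 88 was higher in KO and 0 were lower, against 5.6% and 0.541% of 30860 tested copies within 10 kb of tested protein-coding genes. Over all tested copies the shares were 15.6% and 0.735%. The copy that rose is 5864 bp long, on the plus strand at chr2:127793158-127799021 in the coordinates of the table (GRCm38), 2.1 kb from Bub1. It had 13.7, 19.1 and 59.4 normalized counts in het and 121, 119 and 89.0 in KO. All KO values lay above all het values (limma log2 fold change 2.07 with an SE of 0.54, adjusted p 0.0206). The call was lost when any library other than het replicate 3 was left out. None of 37 tested copies that overlap a member's gene body was called, and Bub1 itself had a log2 fold change of -0.38.

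Some counts may be affected by other annotated genes, which was not tested. Exons of 16 members overlap those of another listed gene, in all 19 cases on the opposite strand, and strand handling is not given in the sources used here. Mcm7 overlaps Cops6 (8952 normalized counts on average), and E2f8 overlaps Gm2788 (4.93). Processed pseudogenes at least 95% identical over at least 500 bases exist for Ccnb1, Ccnd3, Cdc6, Mcm7 and Pcna, so the split of their reads is uncertain. The highest of these pseudogenes, Gm12856, had 186 normalized counts on average beside 3389 for Ccnb1.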

How the data were processed

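RNA-seq libraries of mouse gonocytes were analysed, 3 Morc1 het and 3 Morc1 KO at P0. The labels also list 6 P3 samples, which were not analysed here. The deposited tables hold a signal, read counts that the authors divided by 1 size factor per library, for genes and for TE copies. All values in each column were whole multiples of 1 step within 0.01 of a read, so reads were recovered for count tests. The step of KO replicate 1 in the gene table is close to 1. HISAT2 2.1.0, featureCounts 1.5.2, DESeq2 1.26.0, cutadapt 1.18 and GRCm38 are named in the submitters' processing notes. Library kits were SMART-seq v4 and TruSeq, per the labels' protocols. The annotation, strand and multimapping settings are not given in the sources used here.

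Of 35666 genes, 35560 matched GENCODE M21. Genes and copies whose mean was at least 10 entered two-sided limma 3.58.1 tests (R 4.3.3; eBayes with trend, Benjamini-Hochberg) on log2(value + 1), without covariates. Such fold changes understate the change of low genes. The fit was tested on simulated data. Alternatives were edgeR 4.0.16, DESeq2 1.42.0, other pseudocounts, filters and scalings, a replicate block and leaving out libraries. All members were named, with Morc1, the ends of each further cell cycle list, Ddx4 and markers with an unadjusted p under 0.05. The members and lists were chosen with earlier results of these data known. Near-identical transcripts were searched with BLAST 2.17.0.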

Additional observations from a re-analysis of the deposited data

How the results depend on the processing

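The count of 0 called members held in all 18 alternatives, with a smallest adjusted p of 0.218 (Ccnd2, het replicate 3 and KO replicate 2 left out). Of the 42 members, 16 kept the sign of their fold change in every alternative and 26 changed it in at least 1, in 70 of 756 comparisons. E2f8, Cdkn2a and Cdk6 were among those that kept it. The role medians moved by less than the spread between libraries in each alternative (0.343 for G1/S, 0.177 for G2/M and 0.158 for inhibitors). That spread comes from the same libraries that were left out, so it does not show the medians to be stable. The G2/M median moved by nearly that much, from -0.072 to -0.248 without het replicate 3. The G1/S and inhibitor medians changed sign in some alternatives. Of all genes, 112 were higher and 11 lower in KO. With DESeq2 these counts were 400 and 65, with a pseudocount of 0.1 70 and 5, with a pseudocount of 10 177 were higher, and without trend 3 were lower. With het replicate 3 and KO replicate 2 left out together, 66 were higher. Leaving out 1 library gave 15 to 107 higher and 1 to 7 lower genes. With the replicate block, limma called 64 higher and 5 lower and edgeR, added after the data were seen, 38 and 0. Same-numbered libraries deviated with correlations of 0.138, -0.163 and -0.0438, and differently numbered ones with -0.20 to 0.21. Deviations from a mean of 3 libraries sum to 0 in each genotype, so these values cannot decide whether the numbers pair the samples. The 1 higher TE copy near members became 0 to 2 when 1 library was left out and 0 within gene bodies, and 0 to 1 were lower. The cause of these moves was not tested. With 3 libraries per genotype, the median half-width of the 95% interval was 0.582 (log2) over members, so differences smaller than this were mostly not detectable. These intervals are not adjusted for the number of genes tested, so larger differences could also miss the adjusted threshold. E2f8 did so at -1.35 (limma adjusted p 0.799), and the 0 calls do not exclude differences above 0.582.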
